A study of Mus musculus with 26 samples.

Results

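The transposase-accessible chromatin around 8 genes of the sterol and fatty acid synthesis pathway was examined in Kupffer cells, macrophages that reside in the sinusoids of the liver. The genes were Srebf1 and Srebf2, which encode the sterol regulatory element-binding proteins SREBP-1 and SREBP-2, their regulator Insig1, and the enzyme genes Hmgcs1, Idi1, Sqle, Fasn and Scd2. A member was every peak to which the deposited annotation gave the name of one of these genes, that is, the gene with the nearest transcription start. This gave 46 of the 96238 peaks of the inbred-strain table and 104 of the 213225 peaks of the hybrid table. Among the inbred peaks, 13 belonged to Insig1, 10 to Scd2, 7 to Srebf1, 7 to Srebf2, 4 to Fasn, 3 to Hmgcs1, 1 to Sqle and 1 to Idi1. Of the 46, 37 overlapped a hybrid-table peak of the same gene by at least 50%.

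The assay was ATAC-seq, which tags DNA that a transposase can reach, and the 26 libraries came from Kupffer cells sorted out of the non-parenchymal cells of male mouse livers. C57BL/6J (n = 3), BALB/cJ (n = 2) and CB6F1/J (n = 5) mice had received 0.1 mg/kg of E. coli lipopolysaccharide (LPS), the bacterial ligand of TLR4, into the peritoneum 2 h earlier. The references were uninjected C57BL/6J (n = 4), BALB/cJ (n = 4), A/J (n = 4) and CB6F1/J (n = 4) mice. CB6F1/J is the first-generation cross of C57BL/6J and BALB/cJ, so that each of its cells carries both parental alleles. The labels name no engineered allele in any group and say that all mice were fasted, and all livers were digested in the presence of flavopiridol, an inhibitor of transcriptional kinases. The mice were 8 to 12 weeks old. The LPS library numbers above are those of the labels, and a figure legend of the study swaps those of C57BL/6J and BALB/cJ. Tags were counted in 1000-bp windows centred on the 200-bp peaks, and a normalised count is such a tag count after scaling for library size, separately for the inbred and the hybrid table. A log2 fold change, given ± SE, is LPS over control, or the first-named strain or allele over the second. In the hybrid, variant-spanning tags cover a base that differs between the parents, and perfectly mapped tags are all tags without a mismatch to mm10.

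The inbred libraries held 8.76 to 25.42 M tags except BALB/cJ control replicate 4, which held 178.33 M. The single-allele hybrid libraries held 1.17 to 2.29 M tags. All 12 Kupffer cell marker genes had a promoter peak, against 0 of 7 lymphocyte, 1 of 10 hepatocyte, 1 of 6 stellate cell, 2 of 7 endothelial, 2 of 7 neutrophil and 2 of 6 monocyte marker genes. The summed promoter signal of the Kupffer cell markers was 724 to 1138 normalised counts in C57BL/6J LPS libraries and 852 to 909 in BALB/cJ LPS libraries, against 1359 to 1547 in all control libraries, and that of the monocyte markers was 21.8 to 40.7 in LPS libraries, against 8.1 to 26.2 in control libraries. Ly6c2 and Ccr2, which define inflammatory monocytes, had no promoter peak. The part of these shifts in the LPS results below was not tested, and in bulk chromatin fewer cells of a type and less open DNA per cell cannot be told apart. The names of control libraries carry another date than those of LPS libraries, so an effect of date and of treatment cannot be told apart either.

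SREBPs are made as membrane proteins of the endoplasmic reticulum, where the escort protein SCAP binds them and INSIG proteins hold the complex back while sterols are plentiful. When sterols fall, the complex moves to the Golgi, proteases release the amino-terminal domain, and this domain enters the nucleus and binds sterol regulatory elements. SREBP-2 acts mainly on cholesterol synthesis genes. SREBP-1 is made from alternative promoters as SREBP-1a, the abundant form in macrophages, and SREBP-1c, which acts mainly on fatty acid synthesis genes. INSIG1 is itself a target of SREBPs and so closes a feedback loop.

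Sequences are shown for the promoters and distal peaks on which the results turn. RefSeq promoter windows on GRCm38.p6, the assembly that mm10 represents, were available for 6 of the 8 genes and ran from 250 bases before to 50 after a start, all written 5′ to 3′ on the strand of the gene. Capitals in them mark a sterol regulatory element (TCACNCCAC), an NF-kappaB motif, the bases CACGTG of an E-box, or a CCAAT box (those 5 letters), each searched on both strands. Only exact matches to these letters were counted, so a window without capitals may still hold a site that differs by a base. Of all 32817 promoter windows, 1.24% held the sterol regulatory element, 7.15% the E-box, 37.4% the CCAAT box and 4.5% the NF-kappaB motif. Sqle and Scd2 had no window. Hmgcs1 is shown because it alone of the 6 held the sterol regulatory element, Insig1 and Idi1 because their promoter peaks were called lower after LPS, and the middle start of Srebf1 because a peak called lower in all 3 backgrounds lay beside it.
Hmgcs1 promoter, chr13:119690101-119690400 (plus strand): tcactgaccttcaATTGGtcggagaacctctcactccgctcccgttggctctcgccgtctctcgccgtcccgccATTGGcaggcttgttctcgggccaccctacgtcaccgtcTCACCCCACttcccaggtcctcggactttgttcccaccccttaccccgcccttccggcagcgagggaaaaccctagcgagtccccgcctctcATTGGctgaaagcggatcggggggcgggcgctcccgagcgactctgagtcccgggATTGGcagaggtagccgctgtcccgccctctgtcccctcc
Insig1 promoter, chr5:28071162-28071461 (plus strand): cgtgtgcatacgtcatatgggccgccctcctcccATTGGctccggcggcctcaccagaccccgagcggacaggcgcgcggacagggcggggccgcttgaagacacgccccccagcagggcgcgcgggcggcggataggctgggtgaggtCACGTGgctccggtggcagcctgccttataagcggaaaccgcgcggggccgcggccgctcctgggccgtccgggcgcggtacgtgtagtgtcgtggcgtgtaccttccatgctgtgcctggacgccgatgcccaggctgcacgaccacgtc
Idi1 promoter, chr13:8885356-8885655 (plus strand): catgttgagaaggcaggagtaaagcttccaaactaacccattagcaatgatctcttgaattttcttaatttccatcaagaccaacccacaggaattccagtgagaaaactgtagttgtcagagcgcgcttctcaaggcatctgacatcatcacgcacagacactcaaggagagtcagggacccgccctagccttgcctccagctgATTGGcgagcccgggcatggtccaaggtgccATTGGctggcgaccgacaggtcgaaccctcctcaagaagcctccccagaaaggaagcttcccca
Srebf1 promoter, middle start, chr11:60220578-60220877 (minus strand): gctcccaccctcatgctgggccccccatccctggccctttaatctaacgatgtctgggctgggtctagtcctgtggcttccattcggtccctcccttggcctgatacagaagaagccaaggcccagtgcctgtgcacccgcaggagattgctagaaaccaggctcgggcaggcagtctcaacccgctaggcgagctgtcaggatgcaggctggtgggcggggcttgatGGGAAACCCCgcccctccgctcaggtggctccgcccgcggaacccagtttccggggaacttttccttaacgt

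The Hmgcs1 window held the sterol regulatory element 137 bases before the start and 4 CCAAT boxes, the binding sequence of NF-Y, a factor known to work beside SREBPs. Insig1 held an E-box 101 bases before the start and 1 CCAAT box, and Idi1 held 2 CCAAT boxes. The Srebf1 window held an NF-kappaB motif that begins 22 bases before the start and reads on both strands. The only other sterol regulatory element in the named inbred peaks lay in the Fasn peak 341 bp past the start, on the minus strand of the genome, and 0.87% of all 96238 peaks held this motif. Fasn lies on the minus strand, so the element reads forward with respect to the gene. Both elements are shown on the plus strand of the genome with 10 bases on each side.
Hmgcs1 element, chr13:119690204-119690232 (plus strand): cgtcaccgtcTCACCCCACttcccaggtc
Fasn element, chr11:120824237-120824265 (plus strand): gccgccgccgGTGGGGTGAtgcccgcgcg

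The distal and intronic peaks shown next were those higher after LPS in both the inbred strains and the hybrid, or in 1 inbred strain and the hybrid, and the peak that differed between strains without treatment. Capitals mark the same motifs and also AP-1 (TGANTCA), the PU.1 core (GAGGAAG), C/EBP (TTGCNNAA) and the interferon-stimulated response element. AP-1 is bound by factors that LPS activates, and PU.1 and C/EBP are lineage factors of macrophages. Of all 96238 peaks, 14.3% held the AP-1 motif, 20.8% the PU.1 core, 11.5% C/EBP, 4.27% the interferon element, 5.12% the E-box and 22.6% the CCAAT box.
Insig1, 28344 bp upstream, chr5:28042968-28043167 (plus strand): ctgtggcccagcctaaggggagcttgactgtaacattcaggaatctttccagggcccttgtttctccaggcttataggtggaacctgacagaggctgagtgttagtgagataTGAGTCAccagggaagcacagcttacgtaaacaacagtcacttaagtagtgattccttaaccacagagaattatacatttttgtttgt
Scd2, 28126 bp upstream, chr19:44265450-44265649 (plus strand): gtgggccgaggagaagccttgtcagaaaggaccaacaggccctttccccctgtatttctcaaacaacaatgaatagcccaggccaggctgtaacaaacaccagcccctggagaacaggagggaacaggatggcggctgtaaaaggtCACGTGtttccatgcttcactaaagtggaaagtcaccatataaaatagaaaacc
Srebf1, 783 bp past the middle start, chr11:60219744-60219943 (plus strand): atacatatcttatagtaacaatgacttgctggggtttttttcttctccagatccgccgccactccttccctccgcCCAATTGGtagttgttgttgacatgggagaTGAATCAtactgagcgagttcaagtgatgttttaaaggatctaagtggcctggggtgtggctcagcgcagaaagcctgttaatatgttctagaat
Insig1, 67448 bp upstream, chr5:28003864-28004063 (plus strand): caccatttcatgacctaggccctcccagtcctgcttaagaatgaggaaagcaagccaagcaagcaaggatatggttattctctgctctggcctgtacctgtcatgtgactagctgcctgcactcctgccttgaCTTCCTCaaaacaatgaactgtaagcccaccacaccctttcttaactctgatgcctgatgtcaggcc

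The Insig1 peak 28344 bp upstream and the intronic Srebf1 peak each held 1 AP-1 match, the Scd2 peak held an E-box, and the Insig1 peak 67448 bp upstream held a PU.1 core. The intronic Srebf1 peak also held overlapping CCAAT boxes on both strands. No variant between the strains was looked up in these sequences.

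LPS was compared with no injection within each strain to see how 2 h of inflammatory stimulation moved accessibility at these genes. In C57BL/6J, 2 of 43 tested member peaks were higher and 4 lower after LPS (edgeR quasi-likelihood test, adjusted p under 0.05 and absolute log2 fold change over 1), against 12.3% of all tested peaks higher and 8.07% lower. In BALB/cJ, 4 of 44 were higher and 7 lower, against 16.2% and 11.3% of all peaks. Some called inbred peaks entered the merged inbred peaks only through groups where they were high, as stated for each below. The 2 higher C57BL/6J peaks were among them. In CB6F1/J, 4 of 103 peaks were higher and 17 lower in perfectly mapped tags, against 14.3% and 10.5% of all peaks. The median log2 fold change of the members was −0.35, −0.41 and −0.56 in C57BL/6J, BALB/cJ and CB6F1/J, beside −0.03, −0.07 and −0.09 for all peaks. The C57BL/6J split became 2 higher and 2 lower with DESeq2 size factors, with total counts or with DESeq2 itself, the BALB/cJ split became 4 and 6 with DESeq2 size factors, and the CB6F1/J split became 4 and 25 with DESeq2. Leaving out C57BL/6J LPS replicate 1 gave 10 calls and leaving out replicate 3 gave 2, against 6 with all libraries. The hybrid LPS libraries carry 2 dates, and those of either date alone gave 11 calls against all hybrid controls.

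Peaks were then divided by their distance from the start. Within 1 kb of a start, 0 of 15 C57BL/6J peaks were higher and 4 lower after LPS, 1 of 15 BALB/cJ peaks was higher and 5 lower, and 1 of 21 CB6F1/J peaks was higher and 8 lower. All peaks within 1 kb leaned the same way, with 2.85% higher and 15.6% lower for C57BL/6J, 5.49% and 20% for BALB/cJ, and 6.97% and 12.6% for CB6F1/J. The median log2 fold change of the member peaks within 1 kb was −0.52, −0.88 and −0.69 in the same strain order, beside −0.40, −0.45 and −0.25 for all peaks within 1 kb. Beyond 1 kb the calls were 2 higher and 0 lower of 28 in C57BL/6J, 3 and 2 of 29 in BALB/cJ, and 3 and 9 of 82 in CB6F1/J. Of all peaks beyond 1 kb, 15.1% were higher and 5.85% lower for C57BL/6J, 19.4% and 8.84% for BALB/cJ, and 15.6% and 10.2% for CB6F1/J. Member peaks beyond 1 kb had median log2 fold changes of −0.11, 0.08 and −0.53 in the same strain order. Those of all peaks beyond 1 kb were 0.11, 0.07 and −0.05.

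**Figure D1:**
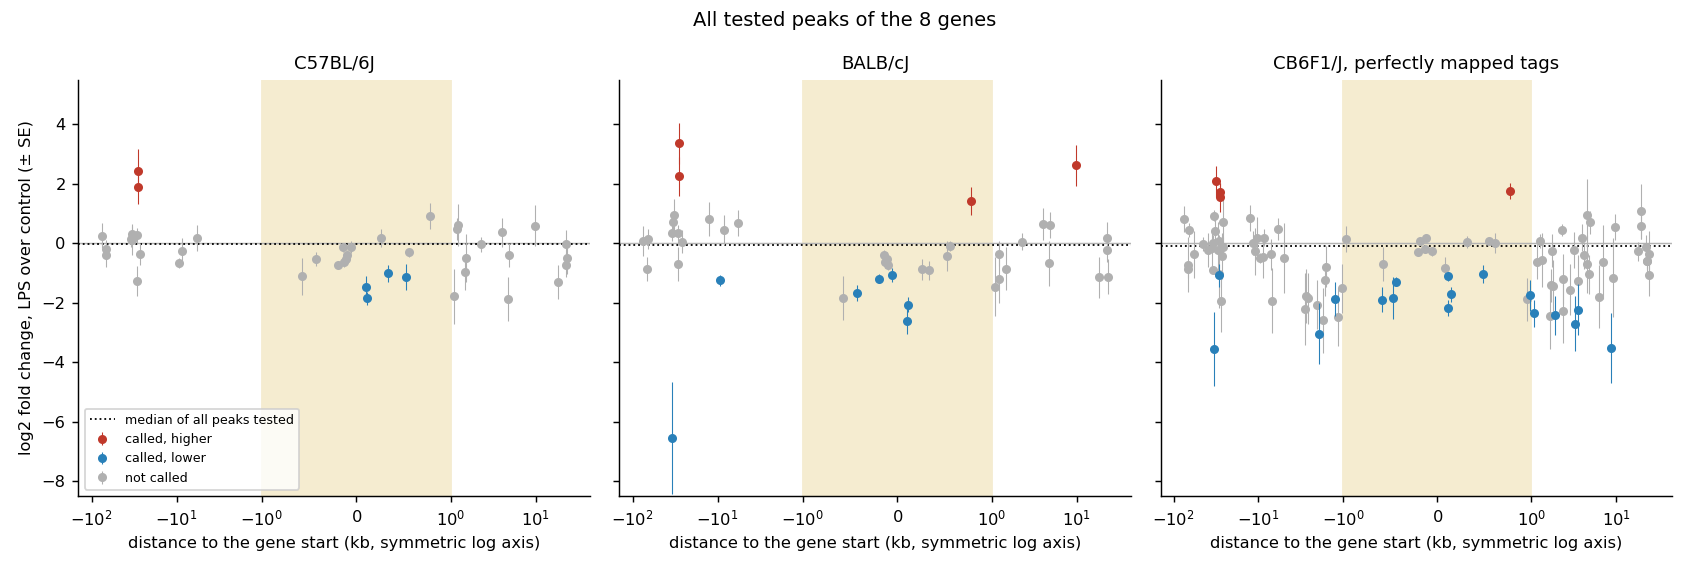
Log2 fold change of LPS over control (± SE) against distance to the gene start for every tested peak of the 8 genes, in C57BL/6J (43 peaks), BALB/cJ (44) and CB6F1/J (103). Red points were called higher, blue lower, grey neither, the dotted line is the median of all tested peaks, and the shaded band marks 1 kb around the start, where 4, 5 and 8 peaks were called lower. The lowest BALB/cJ point, a Scd2 peak with 0 tags after LPS, has a fitted value that depends on the prior count.

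The sterol regulator gene Srebf2 had its highest peak 129 bp upstream of the start (chr15:82147040-82147239, annotated as promoter). It held 214.9, 235.2 and 163.3 normalised counts in C57BL/6J LPS libraries, against 316.5, 370.7, 300.4 and 280.6 in C57BL/6J control libraries. The BALB/cJ libraries held 161.2 and 186.4 after LPS, against 242.6, 337.4, 265.8 and 228 in controls. Every LPS library lay below every control library of its strain, but the log2 fold changes of −0.63 ± 0.17 (adjusted p = 0.00537) and −0.62 ± 0.19 (adjusted p = 0.013) stayed within the fold limit, and in CB6F1/J the value was −0.19 (adjusted p = 0.233).

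A smaller Srebf2 peak in the first part of the gene, 522 bp past the start (chr15:82147691-82147890), fell after LPS in C57BL/6J. This peak entered the merged inbred peaks only through the reproducible peaks of control groups. Its C57BL/6J call is therefore no independent evidence of a fall. It held 15.45, 12.74 and 8.761 normalised counts after LPS, against 35.94, 32.1, 18.21 and 18.61 in controls (log2 −1.14 ± 0.43, adjusted p = 0.0461). This call was lost in 8 of 15 alternative analyses, among them those without C57BL/6J control replicate 1 (log2 −0.88) or 2 (−1.02) and without LPS replicate 2 (−1.16) or 3 (−0.90). The matching hybrid peak held 40.07, 57.88, 42.6, 67.05 and 41.44 after LPS, against 105.4, 81.02, 144.9 and 75.36 in controls (log2 −1.03 ± 0.30, adjusted p = 0.0106), a call lost in 7 of 18 alternatives. Without control replicate 3, or LPS replicate 1, 3 or 5, its log2 fold change was −0.90, −0.95, −0.98 or −0.97, just within the fold limit. In BALB/cJ the value was −0.43 ± 0.49 (adjusted p = 0.541). The groups did not overlap in either strain where the peak was called, and the peak contained an NF-kappaB motif, as did 4.34% of all peaks.

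An intronic Srebf2 peak 9753 bp past the start (chr15:82156922-82157121) rose in BALB/cJ. It entered the merged inbred peaks only through the reproducible peaks of the BALB/cJ LPS group. Its BALB/cJ call is therefore no independent evidence of a rise. It held 13.94 and 18.47 normalised counts in BALB/cJ LPS libraries, against 1.319, 1.95, 4.027 and 2.764 in controls (log2 2.62 ± 0.68, adjusted p = 0.00287). In C57BL/6J it held 8.427, 8.491 and 1.593 after LPS, against 3.478, 1.605, 3.902 and 6.648 in controls, and these overlapped (log2 0.60 ± 0.70, adjusted p = 0.566). The hybrid value was 0.55 ± 0.45 (adjusted p = 0.363). The difference between the C57BL/6J and BALB/cJ responses was tested for all peaks, and 0 of 44 member peaks passed.

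Srebf1 lies on the minus strand of chromosome 11, and RefSeq places curated starts at 60222581, 60220627 and 60210471, from the outermost to the innermost. RefSeq names the proteins from these starts isoform d, isoforms a and b, and isoform c, in that order. A peak lay by each start. The peak over an exon at the middle start (chr11:60220424-60220623, 103 bp past the start) fell in all 3 backgrounds. It held 15.45, 24.62 and 19.91 normalised counts in C57BL/6J LPS libraries, against 63.19, 75.43, 20.81 and 63.82 in C57BL/6J controls (log2 −1.45 ± 0.34, adjusted p = 0.00179). BALB/cJ mice gave 12.2 and 9.673 after LPS, against 71.2, 85.81, 59.06 and 54.18 in controls (log2 −2.60 ± 0.43, adjusted p = 1.73e-05). C57BL/6J control replicate 3 lay within the LPS range, and the BALB/cJ groups were far apart. The matching CB6F1/J peak held 65.01, 56.97, 58.18, 97.11 and 100.2 after LPS, against 341.6, 176, 569.3 and 286.8 in controls (log2 −2.18 ± 0.26, adjusted p = 1.44e-07).

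At the outermost start the peak 424 bp upstream (chr11:60222905-60223104), which held an E-box, fell in BALB/cJ and in the hybrid. It held 43.56 and 34.3 normalised counts in BALB/cJ LPS libraries, against 126.6, 145.3, 100.7 and 123.4 in controls (log2 −1.67 ± 0.26, adjusted p = 9.09e-06). The hybrid peak held 168.6, 163.7, 156.9, 164.9 and 166.7 after LPS, against 401.8, 339.4, 428.2 and 435.3 in controls (log2 −1.29 ± 0.16, adjusted p = 3.69e-07). In C57BL/6J it held 50.56, 47.55 and 61.33 after LPS, against 77.69, 81.84, 71.53 and 75.79 in controls, again without overlap but at log2 −0.52 ± 0.22 (adjusted p = 0.0803). The C57BL/6J response minus the BALB/cJ response was 1.15 ± 0.34 on the log2 scale (adjusted p = 0.28), which did not pass.

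At the innermost start the promoter peak (chr11:60210425-60210624, 54 bp upstream) was the highest of the gene. It held 67.08 and 88.82 normalised counts in BALB/cJ LPS libraries, against 172.7, 199.9, 119.5 and 155.2 in controls (log2 −1.05 ± 0.24, adjusted p = 0.000903). In C57BL/6J it held 120.8, 96.8 and 105.9 after LPS, against 138, 117.2, 121 and 90.41 in controls (log2 −0.13 ± 0.21, adjusted p = 0.689), and in the hybrid the value was −0.27 ± 0.15 (adjusted p = 0.169). The groups separated in BALB/cJ and overlapped in C57BL/6J. The BALB/cJ value came within the fold limit with DESeq2 (−0.97), without control replicate 2 (−0.96) and without LPS replicate 1 (−0.84).

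The intronic peak 783 bp past the middle start rose in BALB/cJ and in the hybrid. It held 47.04 and 42.21 normalised counts in BALB/cJ LPS libraries, against 18.46, 29.25, 14.77 and 8.017 in controls (log2 1.43 ± 0.47, adjusted p = 0.0183). In the hybrid it held 192, 115.8, 161, 123.3 and 166.7 after LPS, against 66.81, 41.9, 33.33 and 35.99 in controls (log2 1.75 ± 0.28, adjusted p = 1.64e-05). In C57BL/6J it held 15.45, 56.89 and 23.89 after LPS, against 19.71, 25.68, 9.104 and 14.63 in controls (log2 0.92 ± 0.44, adjusted p = 0.123). The BALB/cJ call was lost without control replicate 4 (log2 1.07, adjusted p = 0.0778), without LPS replicate 1 (1.37, adjusted p = 0.0909) or 2 (1.52, adjusted p = 0.0674) and with a replicate block (1.06, adjusted p = 0.0554). Its 1000-bp counting window overlaps that of the falling exon peak, so both share tags.

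**Figure D2:**
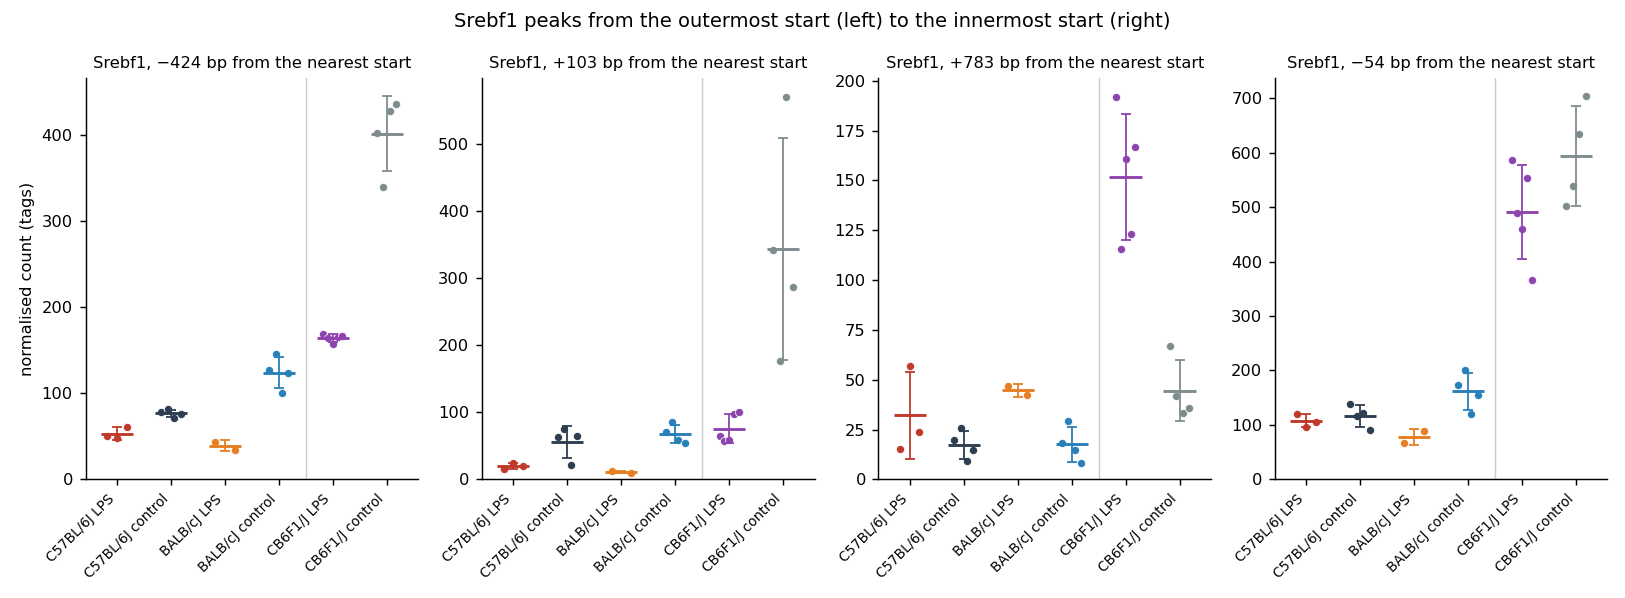
Normalised counts of the 4 Srebf1 peaks named in the text, from the outermost start at the left to the innermost at the right, with points for libraries and bars for mean ± SD. LPS groups stand left of their controls, and the vertical line separates the inbred strains from CB6F1/J (perfectly mapped tags), whose table was normalised separately so that levels cannot be compared across the line. The peak at +103 bp fell in all 3 backgrounds, and the peak at +783 bp was higher after LPS in BALB/cJ and CB6F1/J.

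Insig1, which encodes the retention protein of the SREBP complex, had its highest peak over the promoter 194 bp upstream (chr5:28071118-28071317). It held 187.3 and 224.2 normalised counts in BALB/cJ LPS libraries, against 479.9, 497.3, 495.3 and 415 in controls (log2 −1.19 ± 0.16, adjusted p = 6.27e-07). In C57BL/6J it held 272.5, 319.3 and 282.7 after LPS, against 487, 523.2, 503.3 and 400.2 in controls (log2 −0.71 ± 0.13, adjusted p = 0.000142, within the fold limit). The hybrid value was −0.30 ± 0.10 (adjusted p = 0.0292), also within the limit. The LPS and control libraries did not overlap in either inbred strain. The neighbouring intronic peak 560 bp past the start, whose window overlaps it, averaged 297.1 after LPS, against 365.6 in controls of C57BL/6J, and 314.2, against 335.1, in BALB/cJ, and passed in neither.

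The distal Insig1 peak 28344 bp upstream, whose AP-1 match is printed above, rose in all 3 backgrounds. It entered the merged inbred peaks only through the reproducible peaks of the C57BL/6J LPS group. Its C57BL/6J call is therefore no independent evidence of a rise. It held 5.618, 9.34 and 19.91 normalised counts in C57BL/6J LPS libraries, against 1.739, 6.419, 0 and 1.33 in C57BL/6J controls (log2 2.44 ± 0.72, adjusted p = 0.0114). The values in BALB/cJ were 28.75 and 19.35 after LPS, against 1.319, 3.901, 1.342 and 2.212 in controls (log2 3.36 ± 0.69, adjusted p = 0.000274). The hybrid peak held 59.72, 69.63, 48.83, 96.34 and 56.86 after LPS, against 7.528, 62.86, 16.67 and 6.749 in controls (log2 1.54 ± 0.50, adjusted p = 0.0189). C57BL/6J control replicate 2 exceeded the lowest LPS library and CB6F1/J control replicate 2 lay among the LPS libraries, and the hybrid call was lost in 6 of 18 alternatives, with log2 fold changes of 1.14, 1.34 and 1.14 without control replicate 1, 3 or 4 and 1.36 without LPS replicate 4. A further hybrid peak 31515 bp upstream, chosen after its values were seen, held 29.48, 38.89, 44.68, 63.2 and 35.66 after LPS, against 3.764, 13.97, 8.975 and 13.5 in controls (log2 2.09 ± 0.52, adjusted p = 0.00298). In BALB/cJ the promoter peak was thus lower and the peak 28344 bp upstream higher after LPS.

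Of the sterol synthesis enzymes, Idi1 showed the clearest fall. It encodes isopentenyl diphosphate isomerase, and its only inbred peak lay over the 5′ UTR, 117 bp past the start (chr13:8885623-8885822). It held 43.54, 60.29 and 58.14 normalised counts in C57BL/6J LPS libraries, against 176.8, 208.6, 180.8 and 227.4 in C57BL/6J controls (log2 −1.85 ± 0.22, adjusted p = 2.15e-07). In BALB/cJ it held 47.04 and 61.56 after LPS, against 160.9, 222.3, 328.9 and 202.5 in controls (log2 −2.07 ± 0.25, adjusted p = 2e-07). The lowest control held more than 2 times the highest LPS library in each strain, and both calls held in every alternative analysis. In the hybrid it held 272.2, 257.7, 252.5, 242.8 and 240.9 after LPS, against 546.7, 455.4, 729.5 and 452.2 in controls (log2 −1.11 ± 0.16, adjusted p = 2.66e-06).

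Hmgcs1, which encodes the cytosolic HMG-CoA synthase, had the highest member peak, 140 bp upstream (chr13:119690111-119690310), and it contains the sterol regulatory element shown above. It held 782.3, 517.1 and 512.9 normalised counts in C57BL/6J LPS libraries, against 650.5, 712.5, 766.1 and 513.2 in controls (log2 −0.13 ± 0.15, adjusted p = 0.555). The BALB/cJ libraries held 569.7 and 478.4 after LPS, against 584.1, 677.7, 689.9 and 809.3 in controls (log2 −0.40 ± 0.17, adjusted p = 0.0723). The hybrid value was 0.17 ± 0.11 (adjusted p = 0.263). None of the 3 inbred or 6 hybrid Hmgcs1 peaks was called.

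Sqle encodes squalene epoxidase, and its single peak lay 97 bp upstream (chr15:59314895-59315094). It held 237.4, 200.4 and 181.6 normalised counts in C57BL/6J LPS libraries, against 267.3, 277.6, 290 and 254 in controls (log2 −0.40 ± 0.17, adjusted p = 0.0752). BALB/cJ mice gave 181.2 and 179.4 after LPS, against 259.8, 328.6, 303.4 and 294.6 in controls (log2 −0.72 ± 0.19, adjusted p = 0.0044, within the fold limit). LPS libraries lay below controls in both strains, and the hybrid value was 0.07 ± 0.13 (adjusted p = 0.703), with 657.7 to 921 after LPS, against 660.2 to 812.1 in controls.

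**Figure D3:**
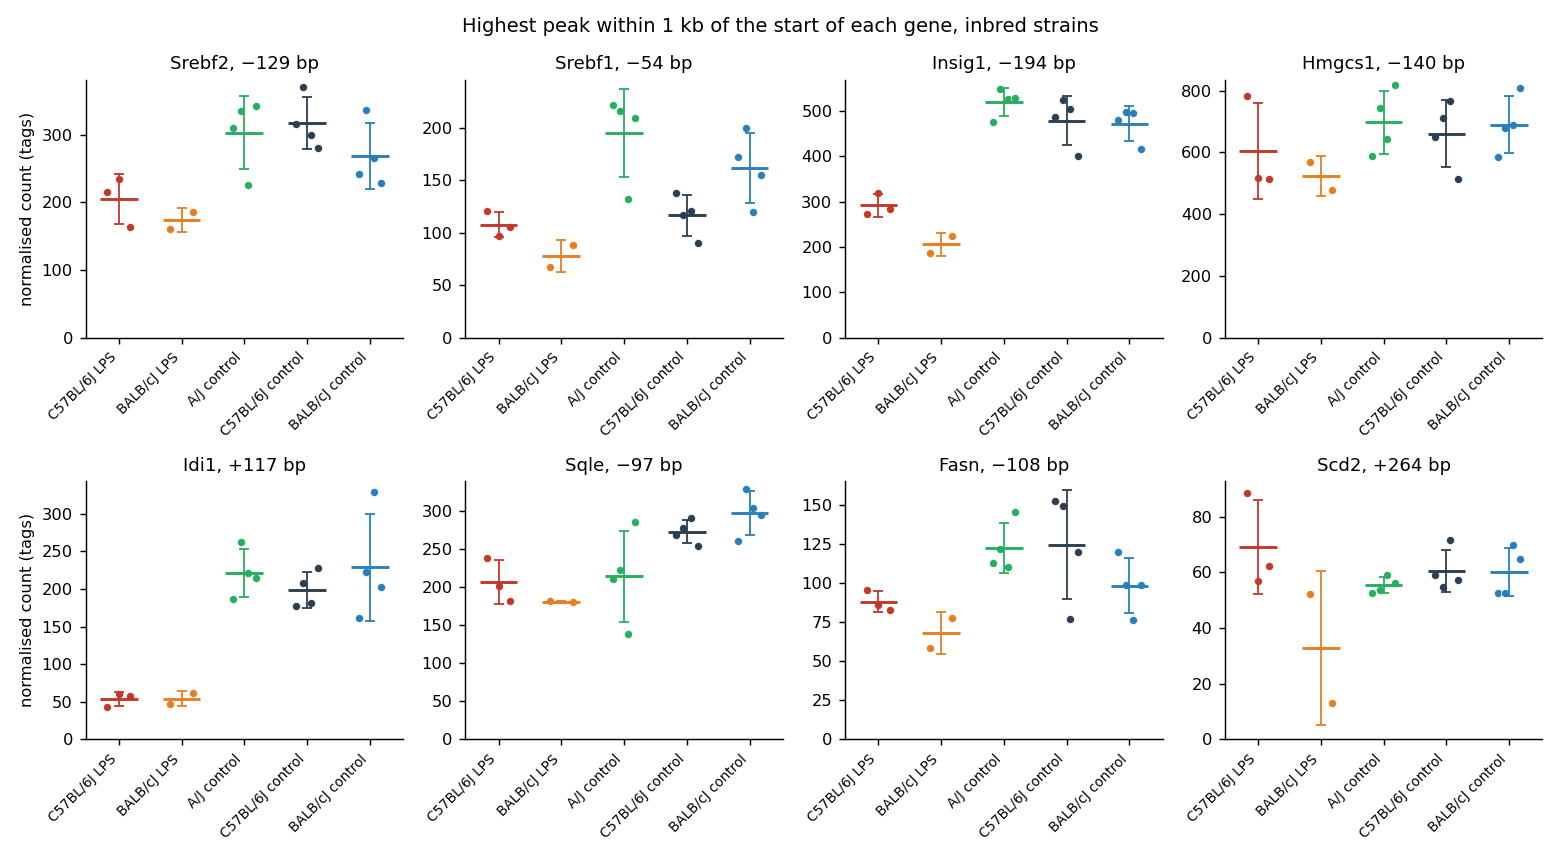
Normalised counts of the highest peak within 1 kb of the start of each gene in the 17 inbred libraries, with points for libraries and bars for mean ± SD. The Idi1 LPS libraries sit between 43.54 and 61.56, all below the controls at 160.9 to 328.9, whereas those of Hmgcs1 overlap their controls in C57BL/6J.

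Fasn encodes fatty acid synthase. Its promoter peak (chr11:120824555-120824754, 108 bp upstream) held 95.5, 85.76 and 82.83 normalised counts in C57BL/6J LPS libraries, against 152.5, 149.2, 76.74 and 119.7 in controls (log2 −0.51, adjusted p = 0.0868). The values in BALB/cJ were 58.37 and 77.39 after LPS, against 120, 98.49, 76.51 and 98.41 in controls (log2 −0.54, adjusted p = 0.109). These groups overlapped by 1 control library in each strain. The 5′ UTR peak with the sterol regulatory element (chr11:120824106-120824305, 341 bp past the start) held 49.16, 30.57 and 27.08 after LPS in C57BL/6J, against 65.51, 81.84, 65.03 and 70.47 in controls (log2 −1.02 ± 0.29, adjusted p = 0.00897). This call was lost in 7 of 15 alternatives, at −0.92 without control replicate 2, −0.90 without LPS replicate 2 and −0.82 without LPS replicate 3. In BALB/cJ it held 20.04 and 38.69 after LPS, against 42.19, 58.51, 63.09 and 56.85 in controls (log2 −0.91 ± 0.33, adjusted p = 0.033, within the fold limit). Neither peak had a match in the hybrid table.

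In the hybrid, 7 of 14 Fasn peaks were lower after LPS and 0 higher, beside 10.5% lower and 14.3% higher of all peaks. Idi1 had 2 of 3 tested hybrid peaks lower, a larger share. Among those of the 8 genes with more than 3 tested peaks, the Fasn share called lower was the largest. The peak 144 bp past the start, chosen after its values were seen, held 70.31, 68.73, 98.7, 98.65 and 84.81 normalised counts after LPS, against 247.5, 265.4, 441 and 153 in controls (log2 −1.71 ± 0.24, adjusted p = 2.8e-06). The others were lower by log2 values of −1.08 to −3.56 and lay from 1248 bp upstream to 3493 bp past the start, apart from those 29207 and 33115 bp upstream. The value of −3.56 belongs to the peak 33115 bp upstream, where controls held 1.882, 9.778, 44.87 and 6.749 normalised counts. Control replicate 1 there lay within the LPS range of 0 to 2.268. Srebf1 had 5 lower and 1 higher of 16 hybrid peaks, and neighbouring windows of both genes share tags.

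Scd2 encodes a stearoyl-CoA desaturase, which makes monounsaturated fatty acids. The highest peak within 1 kb (264 bp past the start) held 88.48, 56.89 and 62.12 normalised counts in C57BL/6J LPS libraries, against 59.13, 54.56, 71.53 and 57.17 in controls (log2 0.17, adjusted p = 0.703). The BALB/cJ libraries held 52.27 and 13.19 after LPS, against 52.74, 52.66, 69.8 and 64.87 in controls (log2 −0.88 ± 0.35, adjusted p = 0.0506). BALB/cJ LPS replicate 2 lay far below every control and replicate 1 just below the lowest, and the hybrid value was 0.06 (adjusted p = 0.854).

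The Scd2 peak 28126 bp upstream, which held the E-box printed above, rose in all 3 backgrounds. It too entered the merged inbred peaks only through the C57BL/6J LPS group, so its C57BL/6J call is no independent evidence. It held 12.64, 19.53 and 32.66 normalised counts in C57BL/6J LPS libraries, against 8.116, 3.21, 5.202 and 5.318 in controls (log2 1.91 ± 0.58, adjusted p = 0.013). BALB/cJ mice gave 21.78 and 12.31 after LPS, against 6.593, 6.826, 1.342 and 1.751 in controls (log2 2.25 ± 0.66, adjusted p = 0.00781). The hybrid peak held 108.1, 113, 113.2, 108.7 and 92.52 after LPS, against 35.76, 26.54, 43.59 and 23.62 in controls (log2 1.72 ± 0.31, adjusted p = 6.65e-05). No LPS library overlapped a control of its background. The C57BL/6J call was lost without LPS replicate 3 (log2 1.51, adjusted p = 0.127) and the BALB/cJ call without LPS replicate 1 (1.80, adjusted p = 0.117).

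A higher Scd2 peak 9420 bp upstream (chr19:44284156-44284355), with a CCAAT box, fell in BALB/cJ. It held 102.8 and 87.94 normalised counts after LPS, against 218.9, 261.3, 236.2 and 193.7 in controls (log2 −1.25 ± 0.19, adjusted p = 7.69e-06). In C57BL/6J it held 118, 102.7 and 100.4 after LPS, against 166.4, 154.1, 192.5 and 159.6 in controls (log2 −0.66 ± 0.17, adjusted p = 0.00352, within the fold limit). In the hybrid, perfectly mapped tags gave −0.48 ± 0.17 (adjusted p = 0.0305) and variant-spanning tags 0.71 ± 0.28 (adjusted p = 0.0397), so the readouts of the same animals differed in sign. The faint peak 33975 bp upstream held 0 tags in both BALB/cJ LPS libraries, against 5.274, 8.776, 6.711 and 8.938 normalised counts in controls. It entered the merged inbred peaks only through these BALB/cJ controls, so its call is no independent evidence of a fall. Against a floor of 3 tags over the LPS group it was at least 5.66-fold lower (adjusted p = 0.00719), a call lost without LPS replicate 1 (adjusted p = 0.059) or 2 (adjusted p = 0.0726).

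**Figure D4:**
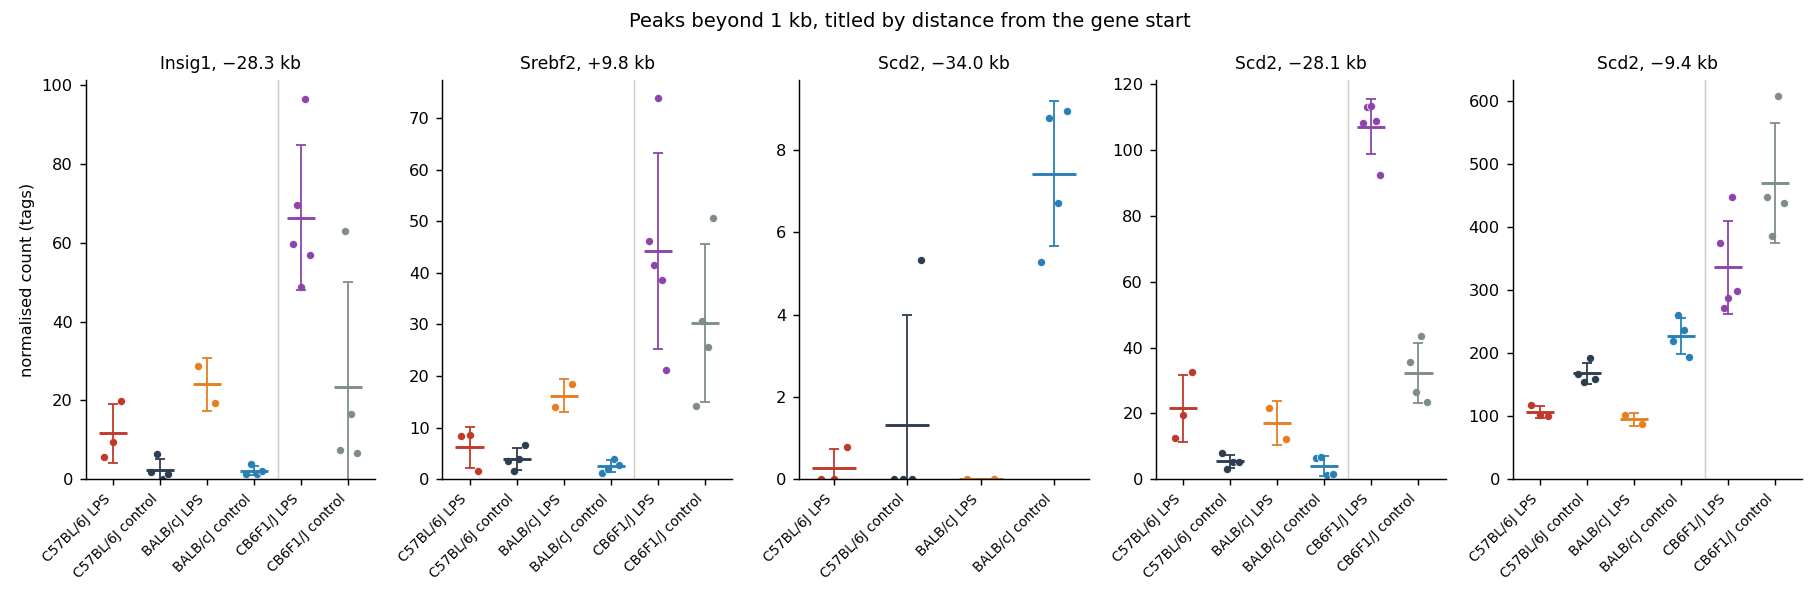
Normalised counts of the 5 member peaks beyond 1 kb called in an inbred LPS comparison, titled by distance from the gene start, with points for libraries and bars for mean ± SD. LPS groups stand left of their controls, and the vertical line separates the inbred strains from CB6F1/J, where that peak has a match. The Insig1 peak and the Scd2 peak 28126 bp upstream were higher after LPS on both sides of the line, whereas levels cannot be compared across it.

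Among variant-spanning tags of the hybrid, which tell the alleles apart, 80 of the 104 member peaks held 0 tags on both alleles and 12 could be tested for LPS, of which 1 was higher and 0 lower, against 26.2% of all tested peaks called either way. The peak called lay in an intron of Scd2, 2276 bp past the start. It held 60.79, 41.62, 45.36, 34.13 and 39.29 normalised counts after LPS, against 29.9, 13.66, 13.76 and 17.15 in controls (log2 1.23 ± 0.43, adjusted p = 0.0176). This call was lost in 5 of 19 alternatives, at 0.99 without control replicate 3, 1.09 without LPS replicate 1 and 1.09 without LPS replicate 3. Perfectly mapped tags at the same peak gave 0.44 ± 0.20 (adjusted p = 0.0918), so the call did not carry over.

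Untreated strains were compared to find member peaks that differ by genetic background. C57BL/6J and BALB/cJ controls differed at 1 of 26 tested member peaks, against 7.29% of all tested peaks, and 7 had an unadjusted p under 0.05. A/J differed from BALB/cJ at 0 of 23 member peaks (4.58% of all peaks; edgeR, with 2 at an unadjusted p under 0.05 and 0 by DESeq2) and from C57BL/6J at 0 of 27 (7.16% of all peaks; 8 and 0). After LPS, C57BL/6J differed from BALB/cJ at 0 of 29 (5.28% of all peaks; edgeR, with 6 at an unadjusted p under 0.05 and 1 by DESeq2). The response itself differed between C57BL/6J and BALB/cJ at 0 of 44 (0.145% of all peaks; 7 and 0). BALB/cJ and C57BL/6J LPS libraries carry different dates, so strain and date cannot be told apart after LPS.

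The peak that differed lay 67448 bp upstream of Insig1 and was the one shown above with a PU.1 core. It held 16.23, 16.05, 11.71 and 25.26 normalised counts in C57BL/6J controls, against 40.87, 34.13, 84.56 and 64.78 in BALB/cJ controls (log2 −1.70 ± 0.35, adjusted p = 0.000713). The groups did not overlap, either among replicates 1 and 2 or among replicates 3 and 4, and the call held in all 16 alternatives. A/J controls held 37, 16.41, 18.31 and 39.12, which overlapped both (log2 −1.03 ± 0.34 over BALB/cJ, adjusted p = 0.0719). After LPS the peak held 15.45, 13.59 and 11.15 in C57BL/6J, against 34.85 and 26.38 in BALB/cJ. Its window overlaps that of a neighbour 66803 bp upstream, which was not called and averaged 60.54 in C57BL/6J controls, against 41.94 in BALB/cJ controls.

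In the hybrid the same peak held 60 variant-spanning tags on the C57BL/6J allele, against 120.5 on the BALB/cJ allele. By animal, LPS livers held 8, 7, 9, 5 and 12 tags on the C57BL/6J allele, against 16.5, 11, 12, 14 and 19 on the BALB/cJ allele. Control livers held 2.5, 0.5, 9.5 and 6.5, against 23, 0, 13 and 12. The C57BL/6J allele was the lower in 8 of 9 animals, the exception being a control with 0.5 tags in all. The normalised means were 6.68 ± 3.42, against 13.1 ± 6.19 (SD, n = 9), and an exact two-sided sign-flip test over animals gave p = 0.00781, where 0.0039 is the smallest possible. That test was added after the data were seen, and the peak lay below the minimum count of the allele comparison across all peaks.

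**Figure D5:**
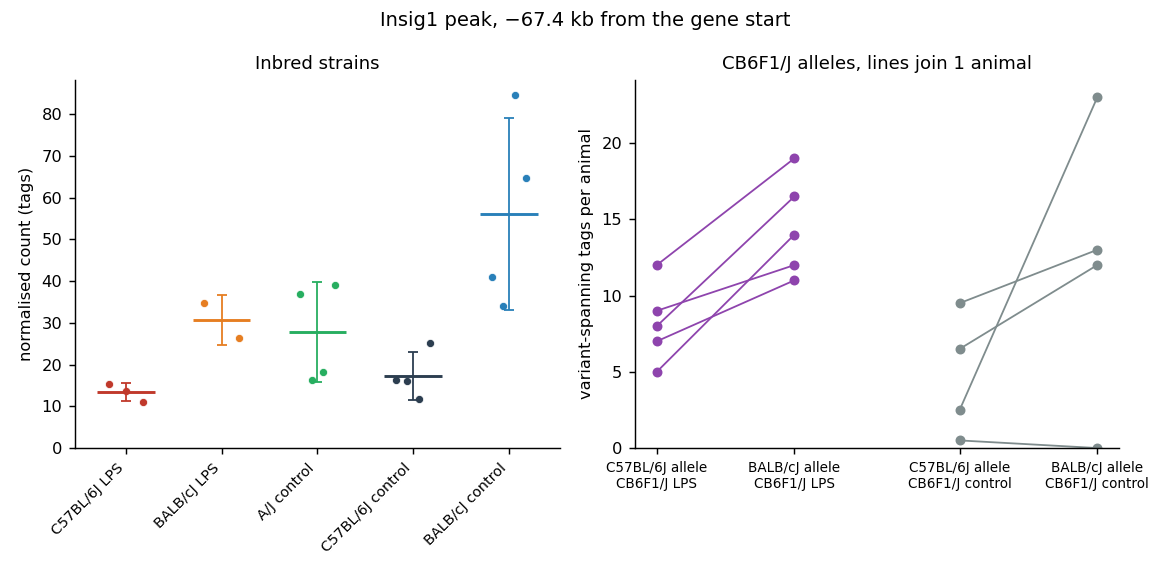
The Insig1 peak 67448 bp upstream, in normalised counts of the inbred libraries (left, bars for mean ± SD) and in variant-spanning tags of each allele of CB6F1/J (right, lines join the alleles of 1 animal). C57BL/6J controls lay below BALB/cJ controls, and the C57BL/6J allele held fewer tags in 8 of 9 animals.

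In the allele comparisons across all peaks, 0 of 2 member peaks passed in control animals (11.5% of all peaks; edgeR, with 0 at an unadjusted p under 0.05 and 0 by DESeq2) and 0 of 3 after LPS (15.4% of all peaks; 0 and 0). The allele difference in response passed at 0 of 9 (0% of all peaks; 0 and 0). The hybrid Insig1 peak beside the one above held 182.5 tags on the C57BL/6J allele, against 135 on the BALB/cJ allele, at log2 0.03 (adjusted p = 0.989) in control and 0.58 (adjusted p = 0.456) in LPS animals. The Scd2 peak 9420 bp upstream held 422.5, against 367.5, at 0.25 (adjusted p = 0.77) and 0.09 (adjusted p = 0.889). None of these differences passed.

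Peaks under the minimum count for strain comparisons were not tested there, and values are given for those that stood apart, chosen after they were seen. The Scd2 peak 12759 bp upstream held 4.638, 1.605, 1.301 and 3.989 normalised counts in C57BL/6J controls, against 14.5, 20.48, 12.08 and 13.36 in BALB/cJ controls, and 0, 4.246 and 9.558 in C57BL/6J LPS libraries, against 22.65 and 30.78 in BALB/cJ LPS libraries. The groups did not overlap. The matching hybrid peak held 25.5 tags on the C57BL/6J allele, against 75 on the BALB/cJ allele, most of them in LPS livers. By animal, LPS livers held 1, 0, 9.5, 4.5 and 7.5 on the C57BL/6J allele, against 22, 9, 14, 20.5 and 0 on the BALB/cJ allele, and control livers 2, 0, 1 and 0, against 0.5, 1.5, 2.5 and 5. One LPS and one control animal held more on the C57BL/6J allele, and no test was run on this peak. The intronic Srebf1 peak 783 bp past the middle start held 4.625, 4.376, 2.035 and 1.565 in A/J controls, lower than any C57BL/6J or BALB/cJ control. It entered the merged inbred peaks through C57BL/6J and BALB/cJ groups and not through A/J. Its low A/J counts, and the A/J calls on it below, are therefore no independent evidence of a difference. A Srebf1 peak 22053 bp upstream held 3.083, 9.847, 28.49 and 23.47 in A/J controls, against at most 2.899 in C57BL/6J and 4.515 in BALB/cJ controls, so A/J replicate 1 lay within the BALB/cJ range. Without a minimum, edgeR called the A/J peak over C57BL/6J (log2 3.40 ± 0.92, adjusted p = 0.014), the intronic Srebf1 peak of A/J over C57BL/6J (log2 −2.36 ± 0.59, adjusted p = 0.00767) and over BALB/cJ (log2 −2.29 ± 0.59, adjusted p = 0.0142), and the Scd2 peak of C57BL/6J over BALB/cJ (log2 −2.21 ± 0.61, adjusted p = 0.0158).

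Other genes of the pathway were read from lists of genes that are not members. Over all peaks tested, 12.3% were higher and 8.07% lower after LPS for C57BL/6J, 16.2% and 11.3% for BALB/cJ, and 14.3% and 10.5% for CB6F1/J in perfectly mapped tags, and nothing particular to a list is read from its counts. Of 61 tested peaks of 11 genes that process SREBPs, 2 were higher and 9 lower after LPS in C57BL/6J, and 7 and 9 of 62 in BALB/cJ, with median log2 fold changes of −0.43 and −0.34 beside −0.03 and −0.07 for all peaks. Erlin2, which encodes a sterol-binding protein of the endoplasmic reticulum, fell at its promoter (55 bp upstream) by log2 −1.97 ± 0.22 in C57BL/6J (adjusted p = 8.7e-08) and −2.43 ± 0.26 in BALB/cJ (adjusted p = 3.3e-08). Mbtps2, the gene of the protease that frees SREBPs from the membrane, fell 296 bp past the start by −1.55 ± 0.34 (adjusted p = 0.000845) and −1.43 ± 0.39 (adjusted p = 0.00475). Ubxn8 had a falling peak 111 bp past the start (−2.42 ± 0.40 and −3.33 ± 0.49) and a rising peak 492 bp upstream (1.98 ± 0.47 and 2.45 ± 0.49).

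Of 47 peaks of the sterol synthesis list, 1 was higher and 7 lower in C57BL/6J, and 3 and 8 of 47 in BALB/cJ, with medians of −0.17 and −0.29, again beside −0.03 and −0.07 for all peaks. The shares called over all peaks were 12.3% higher and 8.07% lower for C57BL/6J and 16.2% and 11.3% for BALB/cJ. Acat2, which encodes the thiolase that makes acetoacetyl-CoA, fell 146 bp past the start by log2 −1.62 ± 0.26 (C57BL/6J) and −2.31 ± 0.31 (BALB/cJ). Cyp51, the lanosterol demethylase gene, fell 72 bp past the start by −1.45 ± 0.22 and −1.38 ± 0.25, and Fdps, the farnesyl diphosphate synthase gene, fell 1153 bp upstream by −1.59 ± 0.37 and −1.24 ± 0.39. All named peaks of these lists passed the test in both strains.

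The fatty acid list had 9 higher and 2 lower of 73 C57BL/6J peaks, 11 higher and 8 lower of 79 BALB/cJ peaks, with medians of −0.03 and −0.10 beside the −0.03 and −0.07 of all peaks, of which 12.3% were higher and 8.07% lower (C57BL/6J), or 16.2% and 11.3% (BALB/cJ). Dgat2, which makes triacylglycerol, fell at its promoter by log2 −1.85 ± 0.33 and −2.32 ± 0.38, and Scd1, the neighbour and paralogue of Scd2, rose 8670 bp upstream by 1.57 ± 0.39 and 1.57 ± 0.42. In the sterol uptake and traffic list, 10 of 93 C57BL/6J peaks were higher and 5 lower. Of 102 BALB/cJ peaks of this list, 12 were higher and 8 lower. The shares over all peaks were 12.3% and 8.07% (C57BL/6J), or 16.2% and 11.3% (BALB/cJ). The medians of the list were 0.06 and 0.04, beside −0.03 and −0.07 for all peaks. Npc2 and Lipa, genes of lysosomal sterol release, rose 8230 and 14114 bp past the start by 3.04 ± 0.53 and 2.64 ± 0.59 for C57BL/6J, 4.55 ± 0.60 and 3.08 ± 0.60 for BALB/cJ. In the hybrid the perfectly mapped tags gave 12 higher and 14 lower of 108 peaks for SREBP processing, 14 and 12 of 116 for sterol synthesis, 19 and 19 of 176 for fatty acids and 28 and 20 of 206 for uptake and traffic, beside 14.3% higher and 10.5% lower of all peaks. The medians of these lists in the hybrid were −0.32, −0.17, −0.15 and −0.11 in that order, beside −0.09 for all peaks. The response differed between C57BL/6J and BALB/cJ at 0 peaks of any of these lists by edgeR.

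Over the 5 inbred groups, promoter peaks of 10853 genes were compared with those of the members by the root mean square difference of centred log2 means. The nearest to Srebf1 was Mir700 at 0.0453, to Srebf2 Hikeshi at 0.0181, to Insig1 Fam207a at 0.0259 and to Idi1 Mmadhc at 0.0464. Hmgcs1 was nearest to Chd6 at 0.0161, Sqle to Lzts3 at 0.0544, Fasn to Pot1b at 0.0283 and Scd2 to Akt1s1 at 0.0718. None of these neighbours was on a pathway list, and the measure rests on 5 group means.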

How the data were processed

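Groups, dose and time came from the labels. The authors trimmed reads, aligned them with Bowtie2 to strain genomes built from mm10, moved positions to mm10 and made tag directories and 200-bp peaks with HOMER. Versions are not given in the sources used here. The authors deposited raw tags in 1000-bp windows centred on merged peaks, with whole counts in the inbred LPS columns and, in inbred control and hybrid columns, expected counts (multiples of 0.5 tags). Neither table was normalised. The hybrid columns used here hold, for each allele, the perfectly mapped tags covering a parental variant, and all perfectly mapped tags on mm10, which favour the C57BL/6J allele near variants. The peak files of single libraries hold a signal that the authors deposited (HOMER's normalised tag count) and were read for library totals. The reproducibility lists served only to state through which group some named peaks entered the merged peaks. The 27 other value columns of the hybrid table were not used. Per the file headers, C57BL/6J control reads were not shifted, and no mitochondrial tag was counted for them.

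Tags in steps of 0.5 were rounded up to whole numbers, which among inbred libraries raised control counts only. Peaks on chromosomes 1 to 19, X and Y (inbred, 96238 of 96381) or on autosomes (hybrid, 213225 of 217456) were tested with the quasi-likelihood test of edgeR 4.0.16 in R 4.3.3 with TMM scaling. All 17 inbred libraries entered 1 model with a mean per group, and alleles were compared with a term for each animal. A peak was tested above a mean normalised count of 16 for strains and alleles and of 4 for LPS and the difference in response, and called at a Benjamini-Hochberg adjusted p under 0.05, over all peaks tested, with an absolute log2 fold change over 1. The ± after a log2 fold change is an approximate SE, the absolute log2 fold change divided by the square root of the F statistic of that test. Normalised counts are raw counts scaled to the geometric mean of the effective library sizes. Since 44095 inbred and 124129 hybrid peaks share part of their window with another, neighbouring peaks share tags. DESeq2 1.42.0, 2 scalings, rounding down, other minimum counts, a replicate block, only the groups compared and leaving out each library were alternatives, and the code was tested on simulated data.

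The members and lists were chosen with earlier results of these data known. Named were, for each gene, the highest peak within 1 kb of the start and every called peak of the comparisons fixed at the outset. The LPS comparison in perfectly mapped tags was added as a readout of its own after the data were seen, since most member peaks held no variant-spanning tag. Replicates are separate samples per the labels, and p-values measure only the spread between these samples. The result of 1 gene of the pathway lists is not reported here.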

Additional observations from a re-analysis of the deposited data

Results flagged for a closer look

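Of 91 groups of 4 or 5 samples checked at the named peaks, 3 held a sample far from the others, and chance flags about 1 in 20 groups. At the Srebf1 peak 54 bp upstream of the innermost start, A/J control replicate 3 held 132.3 normalised counts, apart from the other A/J controls at 209.7 to 222. At the Scd2 peak 33975 bp upstream, C57BL/6J control replicate 4 held 5.318 normalised counts, whereas the other C57BL/6J controls held 0. At the hybrid Scd2 peak 28110 bp upstream, CB6F1/J LPS replicate 5 held 92.52 normalised counts of perfectly mapped tags, apart from the other LPS libraries at 108.1 to 113.2 and still above the controls at 23.62 to 43.59. No cause of these was tested.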

How the results depend on the processing

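Of 26 calls of named peaks, 26 kept their direction in every alternative and 16 also kept their call. With DESeq2 3 calls were lost, with DESeq2 size factors 3, with total counts 3, with rounding down 1 and with the replicate block 2. With no minimum count, the calls of C57BL/6J control over BALB/cJ control went to 2 against 1, of A/J control over BALB/cJ control to 1 against 0, of A/J control over C57BL/6J control to 2 against 0, of C57BL/6J LPS over BALB/cJ LPS to 1 against 0 and of CB6F1/J LPS in variant-spanning tags to 5 against 1. A higher minimum left 7 of 11 calls of BALB/cJ LPS, with fewer peaks tested. DESeq2 gave 1 call for C57BL/6J LPS over BALB/cJ LPS and 2 for CB6F1/J LPS in variant-spanning tags. In place of variant-spanning tags, perfectly mapped tags gave 21 calls, and with variant-spanning tags the LPS libraries of the later date alone (replicates 3 to 5) gave 0. In perfectly mapped tags the LPS libraries of either date alone gave 11 calls, against 21. The cause was not tested except where fewer libraries or peaks entered.

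Leaving out 1 library at a time gave 1 to 1 calls for C57BL/6J control over BALB/cJ control, 0 to 1 for A/J over BALB/cJ, 0 to 0 for A/J over C57BL/6J, 2 to 10 for C57BL/6J LPS, 9 to 13 for BALB/cJ LPS, 0 to 1 for C57BL/6J LPS over BALB/cJ LPS, 0 to 1 for the difference in response, 0 to 2 for CB6F1/J LPS in variant-spanning tags, 0 to 0 for each allele comparison and 15 to 28 for CB6F1/J LPS in perfectly mapped tags. Deviations from the group means correlated at 0.054 to 0.375 between same-numbered inbred control libraries and at −0.381 to 0.217 between differently numbered ones. Among these controls, replicates 1 and 2 correlated positively across strains, as did 3 and 4, while the values between the 2 sets were negative, and the cause was not tested. Same-numbered libraries correlated at −0.097 to 0.131 where 1 or both were inbred LPS libraries and at −0.007 to 0.003 in the hybrid, where 0 of 4 correlated best with their own number. Of the controls, 3 of 4 did so between A/J and C57BL/6J and 2 of 4 in the other pairs of strains. Since not every pair passed 0.1, the numbers were not taken to pair samples. With the replicate block, calls were 2 higher and 6 lower for C57BL/6J LPS, 3 and 9 for BALB/cJ LPS, 4 and 11 (15 in all) for CB6F1/J LPS in perfectly mapped tags, 1 for A/J over BALB/cJ control and 1 for C57BL/6J LPS over BALB/cJ LPS. Other scalings shifted the median log2 fold change of all peaks by up to 0.107 in C57BL/6J LPS, 0.125 in BALB/cJ LPS, −0.121 in variant-spanning and −0.134 in perfectly mapped tags of CB6F1/J LPS. In the allele comparisons, 80 of 104 member peaks held 0 variant-spanning tags on either allele, and whether low depth or the lack of a parental variant in the window accounts for this was not tested.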
